A study of Mus musculus with 9 samples.

Results

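The state of starved MyC-CaP cells before any ligand is described here from the 3 libraries collected at time 0, out of 9 libraries in the series. MyC-CaP is a mouse prostate cancer line derived from a tumor of a mouse that carried a human MYC transgene driven by a probasin promoter, and the labels call its cells epithelial-like. In the series, cells were deprived of serum and calcium for several hours and then given recombinant neuregulin 1 (NRG1), a ligand of the receptor HER3, at 15 ng/mL, and 3 biological replicates each were collected after 0, 12 and 24 h. The members were chosen by their label of 0 h alone, and they carry the treatment label NRG1-treated like every library of the series although no time with the ligand had passed. The 12 h and 24 h libraries were not analysed here. All 3 libraries therefore share the cell line, the starvation and the absence of elapsed ligand time. No library of fed cells was analysed here, so nothing below measures what starvation changed. The cells are 1 established line, the replicates were plated as wells of that line, and their spread may be partly technical.

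Luminal cells are the secretory cells of the prostate epithelium. Their identity is held by transcription factors such as FOXA1 and HOXB13, and their shape by keratins and by junction proteins such as E-cadherin, claudins and occludin. HER3, the product of Erbb3, has little kinase activity of its own and signals on ligand binding by pairing with HER2, the product of Erbb2, which has no known ligand. The repertoire of receptors, adhesion molecules and transcription factors before ligand is thus the state from which a response to NRG1 starts.

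To place each gene on a scale that allows comparison between genes, counts were divided by the summed length of the exons of the gene and scaled to a total of 1000000 in each library (transcripts per 1000000, TPM). Values are the mean TPM ± SD over the 3 libraries (n = 3) unless the libraries are given one by one, in the order of replicates 1, 2 and 3. The libraries held 28467089, 37873433 and 34039957 counts. A count of 0 in a library allows a level of up to 0.105, 0.0792 and 0.0881 counts per 1000000, taking 3 counts as the limit and covering counting error only.

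Of 15552 genes in the table, 10404 (66.9%) were expressed, which means at least 1 TPM in each of the 3 libraries. A further 3877 (24.9%) were low, and 1271 (8.17%) had 0 counts in all 3 libraries and are called undetected. The table holds only genes with at least 1 count somewhere in the series, so these shares are not shares of all mouse genes. Counts of expressed or undetected members of a list, given below, stand against these 66.9% and 8.17%. The median of the expressed genes was 27.0 TPM. Between 1 and 10 TPM lay 2407 of them, between 10 and 100 TPM 6348, between 100 and 1000 TPM 1503, and 146 reached 1000 TPM. The number of genes at or above 1 TPM differed little among the libraries, at 10531, 10576 and 10542.

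**Figure D1:**
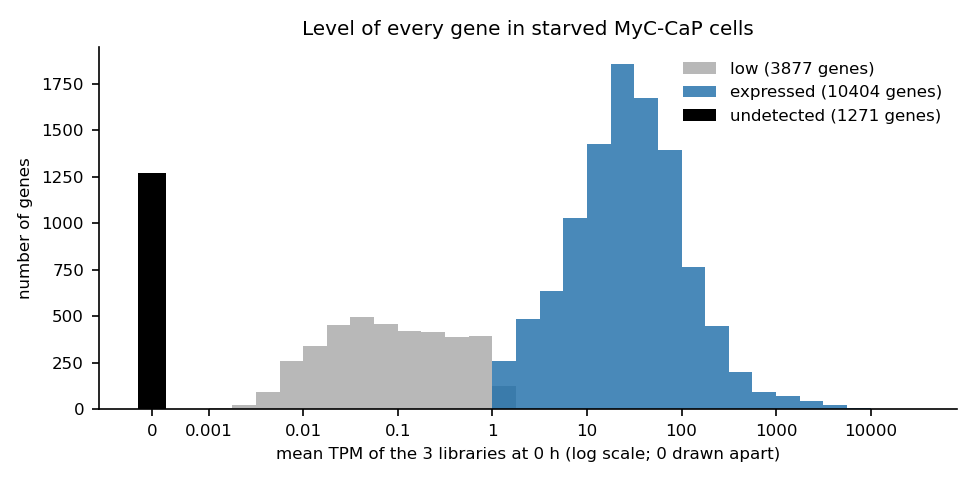
Histogram of the mean TPM of the 3 libraries at 0 h (log scale) for every gene, with the expressed genes in blue, the low genes in grey and the genes at 0 counts in all 3 libraries as a black bar drawn apart at the left. The 10404 expressed genes form a peak around their median of 27.0 TPM, and the 3877 low genes spread over a flat shoulder below 1 TPM.

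The most abundant transcripts were those of protein synthesis, glycolysis and respiration. The 10 highest genes of each library held 10.02% ± 0.256 of all TPM, the 100 highest 34.3% ± 0.73 and the 1000 highest 66.7% ± 0.653. Eef1a1, the elongation factor that brings aminoacyl-tRNA to the ribosome, came first with 20292, 19565 and 19338 TPM. Among the 30 highest genes, 12 encode cytosolic ribosomal proteins, 5 are encoded by the mitochondrial genome, 5 are enzymes of glycolysis or lactate production and 2 are elongation factors. Rplp1 and Rplp0, proteins of the ribosomal stalk, stood at 12090 ± 411 and 9365 ± 343 TPM. Other ribosomal proteins in this group were Rpl36, Rps3a1, Rps15, Rps4x, Rpl8, Rpl4, Rps16, Rpl19 and Rps29, from 8659 ± 233 TPM for Rpl36 to 3260 ± 150.3 TPM for Rps29. Eef2, which moves the ribosome along the message, had 6975 ± 213 TPM.

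Of the glycolytic enzymes, Pgk1 had 9275, 8654 and 8394 TPM, and the other members followed at lower levels. Pkm, which encodes pyruvate kinase, had 5617 ± 129 TPM, with 15.3% of its exonic bases also in another gene on the same strand. Lactate dehydrogenase Ldha was the steadiest of the 30 genes, at 3699, 3717 and 3702 TPM. Aldoa and Gapdh had 3705 ± 133 and 3592 ± 155 TPM. The remaining 6 of the 30 were S100a6, a calcium-binding protein, at 6809 ± 124 TPM, the chaperone Hsp90ab1 at 6303 ± 79.9 TPM, the retinal dehydrogenase Aldh1a1 at 5196 ± 90.9 TPM, Tpt1, the translationally controlled tumor protein, at 5118 ± 228 TPM, the nucleolar protein Npm1 at 4588 ± 40.3 TPM and the disulfide isomerase P4hb at 4007 ± 156 TPM. None of the 30 varied among the libraries by the criterion given below, and their coefficients of variation ran from 0.267% to 5.16%. In 15 of the 30, at least 10% of the 100-base windows of the transcripts also occur in transcripts of another gene, so part of their reads may have been assigned to, or taken from, a copy.

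The mitochondrially encoded genes fell into groups that were far apart. All 13 were expressed, 7 of them above 1000 TPM and 6 below 30 TPM. The 5 in the group of the most abundant genes were mt-Co1 at 13127 ± 406 TPM, mt-Cytb at 8032 ± 80.4 TPM, mt-Nd1 at 5225 ± 172 TPM, mt-Nd5 at 3986 ± 67.6 TPM and mt-Nd6 at 3512 ± 107 TPM. By contrast mt-Co2, which encodes a subunit of the same complex as mt-Co1, had 25.9, 22.6 and 22.5 TPM, and mt-Co3 had 17.9, 16.5 and 19.8 TPM. The share of 100-base windows found in another gene was 99.5% for mt-Co2, 99.9% for mt-Co3, 99.5% for mt-Atp6, 98.5% for mt-Nd4l and 97.6% for mt-Nd3, but 0% for mt-Atp8, the sixth gene below 30 TPM (5.28 ± 1.44 TPM), of which 21.1% of the exonic bases overlap another gene on the same strand. Among the 7 high genes it was 60.8% for mt-Nd4, 30.8% for mt-Co1, 3.19% for mt-Nd2 and 0% for mt-Cytb, mt-Nd1, mt-Nd5 and mt-Nd6. The part of this in the low values was not tested.

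Ribosomal protein genes as a family were close to complete. Of 82 in the table, 79 (96.3%) were expressed, 61 of them at or above 1000 TPM, and together they held 8.53% of all counts. Rpl10l and Rpl39l, copies of Rpl10 and Rpl39 known for expression in testis, were undetected. Rps10 and Rpl24, chosen after their values were seen, had only 6.18 ± 1.32 and 2.56 ± 0.668 TPM, and 20.6% and 47.0% of their exonic bases lie in another gene on the same strand.

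Markers of luminal prostate cells stood at both ends of the scale. Of 32 luminal and androgen axis genes in the table, 20 (62.5%) were expressed, close to the 66.9% over all genes, and 6 were undetected. Psca, prostate stem cell antigen, had 384, 312 and 331 TPM. Fkbp5, a co-chaperone gene known as an androgen target, had 302, 290 and 291 TPM. Foxa1, a pioneer factor of luminal cells, had 282, 285 and 297 TPM. The prostate homeobox factor Hoxb13 had 131, 134 and 127 TPM, and Gata3, a luminal transcription factor, had 182 ± 6.66 TPM. The 3 libraries lay close together for Fkbp5, Foxa1, Hoxb13 and Gata3. Psca was more spread, its highest TPM being 1.23 times the lowest. In the scaled counts used for the criterion given below, this ratio of Psca was 1.29. Krt19, with 223, 171 and 149 TPM, was the only gene of this list called variable by that criterion.

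Undetected in this list were Tmprss2, Ndrg1, Spdef, Prom1, Azgp1 and Pmepa1, several of which are known androgen targets in prostate cells. The luminal transcription factors were thus divided, with Foxa1, Hoxb13 and Gata3 expressed, Spdef at 0, and Gata2, chosen after its values were seen, at 1, 0 and 1 counts. Among secretory proteins of the mouse prostate and seminal vesicle, 2 of 11 (18.2%) were expressed, namely Apof at 43.5 ± 5.38 TPM and Nupr1 at 30.4 ± 3.76 TPM. Pbsn, which encodes probasin, Svs3a, Crisp1 and Ceacam10 had 0 counts. Trpm8 was not among the luminal and androgen axis genes in the table.

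Keratins, the intermediate filaments of epithelia, were unequal in level. Of 37 in the table, 15 (40.5%) were expressed, against 66.9% of all genes, and 6 were undetected. Krt4, a keratin of the upper layers of moist lining epithelia, led with 1201, 1175 and 1227 TPM. Krt15, a keratin of basal cells, had 413, 331 and 336 TPM. Krt19 had 223, 171 and 149 TPM, and Krt78 had 74.0, 57.5 and 55.5 TPM. In each of the latter 3 the first library was the highest. Krt8 and Krt18 encode partners that form the filament of simple epithelia, yet Krt8 was expressed, with 33.5, 31.1 and 30.4 TPM, whereas Krt18 had only 6, 13 and 7 counts, or 0.494, 0.823 and 0.488 TPM. Krt18 was chosen after its values were seen. Of the windows of Krt8, 17.1% also occur in another gene. Krt75, Krt84, Krt9, Krt28, Krt2 and Krt77, mostly keratins of skin and hair, had 0 counts.

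The genes of epithelial junctions divided in the same way. Of 26 adhesion genes in the table, 16 (61.5%) were expressed, against 66.9% of all genes, and 4 were undetected. Cldn3, a claudin of the tight junction, was the highest with 1571, 1452 and 1482 TPM. Spint2, an inhibitor of membrane serine proteases, had 340, 324 and 325 TPM. The tight junction scaffold Tjp1 had 93.0 ± 4.16 TPM and plakoglobin, Jup, 85.6 ± 3.58 TPM. At the other end, the libraries held 0 counts of Epcam, an epithelial adhesion molecule, of the tight junction genes Cldn7 and Ocln, and of Dsg2, a desmosomal cadherin. Cdh1, which encodes E-cadherin, had 4, 4 and 0 counts, Dsp, which encodes desmoplakin, had 1, 0 and 0, and Esrp1, a splicing regulator of epithelia, had 0, 3 and 0, against 62.2 ± 1.53 TPM of its paralog Esrp2. These 4 genes were chosen after their values were seen. The label epithelial-like thus stands beside claudin and keratin transcripts at high levels and beside E-cadherin, Epcam and desmoplakin transcripts at or near 0.

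Claudins were led by Cldn3, followed by Cldn10 at 254 ± 15.7 TPM, Cldn12 at 56.3 ± 4.15 TPM and Cldn9 at 45.3 ± 3.32 TPM. Of 16 in the table, 7 (43.8%) were expressed, and Cldn7, Cldn11 and Cldn14 were undetected.

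The sequences upstream of the starts of the pairs Cldn3 and Cldn7, and Krt8 and Krt18, are shown because each pair holds related genes, of which the first was expressed and the second was not. Each window runs from 250 bases before to 50 bases after the start in the RefSeq table of GRCm38.p6, is written from 5′ to 3′ on the strand of the gene, and has every CG in capitals. For Cldn7, which has 2 listed starts, the upstream one was taken. Krt8 and Krt18 are neighbors on chromosome 15 and are read away from each other.
Cldn3: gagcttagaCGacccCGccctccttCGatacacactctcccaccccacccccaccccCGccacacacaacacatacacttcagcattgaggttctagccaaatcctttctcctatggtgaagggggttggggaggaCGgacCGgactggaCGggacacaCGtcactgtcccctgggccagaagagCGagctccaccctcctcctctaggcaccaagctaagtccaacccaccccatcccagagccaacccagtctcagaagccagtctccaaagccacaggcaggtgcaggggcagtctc
Cldn7: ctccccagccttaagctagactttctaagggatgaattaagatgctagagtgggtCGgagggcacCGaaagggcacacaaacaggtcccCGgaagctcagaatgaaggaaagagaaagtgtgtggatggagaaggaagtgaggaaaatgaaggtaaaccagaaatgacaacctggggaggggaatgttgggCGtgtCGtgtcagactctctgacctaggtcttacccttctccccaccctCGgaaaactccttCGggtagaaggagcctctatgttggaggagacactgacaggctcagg
Krt8: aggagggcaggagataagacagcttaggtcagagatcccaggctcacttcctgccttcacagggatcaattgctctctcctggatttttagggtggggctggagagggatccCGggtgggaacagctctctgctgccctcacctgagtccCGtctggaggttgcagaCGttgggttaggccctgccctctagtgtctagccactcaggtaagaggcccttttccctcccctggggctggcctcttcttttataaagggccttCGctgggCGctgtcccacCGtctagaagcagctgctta
Krt18: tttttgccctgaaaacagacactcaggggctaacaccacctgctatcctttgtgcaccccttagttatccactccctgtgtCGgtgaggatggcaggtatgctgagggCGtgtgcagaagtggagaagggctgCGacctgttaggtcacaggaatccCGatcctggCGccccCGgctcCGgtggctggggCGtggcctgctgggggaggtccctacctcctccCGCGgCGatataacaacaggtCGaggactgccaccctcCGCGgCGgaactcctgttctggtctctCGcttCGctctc
These windows are chr5:134985964-134986263 on the plus strand for Cldn3, chr11:69964529-69964828 on the plus strand for Cldn7, chr15:102004293-102004592 on the minus strand for Krt8 and chr15:102027966-102028265 on the plus strand for Krt18. They hold 9, 7, 6 and 17 CG, respectively, against a median of 7 over all 32851 windows in the table, of which 94.6% hold at least 1 CG. Krt18, near 0 in RNA, had the most CG of the 4, and the expressed Krt8 the fewest. DNA methylation was not measured, and a CG count alone says nothing about it. The table gave a window for 77.9% of the genes, below the 80% needed to describe whole classes, so the CG content of expressed and undetected genes was not compared.

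Some markers of other lineages were expressed, and each list had a smaller share expressed than the 66.9% of all genes, as had the luminal list. Of 14 basal genes, 7 (50%) were expressed, led by Krt15, the caveolin gene Cav1 at 221 ± 5.08 TPM, the integrin Itga6 at 40.2 ± 0.788 TPM and Dst, a linker of hemidesmosomes, at 24.8 ± 2.48 TPM. Summed over the list, the basal genes had 711, 643 and 647 TPM. Krt14, a defining basal keratin that was chosen after its values were seen, had 0.269, 0.621 and 0.228 TPM. Krt5 was not among the basal genes in the table. Of 20 mesenchymal genes, 8 (40.0%) were expressed, with fibronectin, Fn1, at 1323, 1401 and 1213 TPM, Sparc at 238 ± 4.95 TPM, vimentin, Vim, at 178 ± 6.69 TPM and Col5a1 at 71.8 ± 3.18 TPM. N-cadherin (Cdh2), the smooth muscle actin Acta2 and the fibrillar collagen genes Col1a2 and Col3a1 had 0 counts. Of 13 neuroendocrine genes, 3 (23.1%) were expressed. Uchl1, a ubiquitin hydrolase of neurons, had 1507, 1487 and 1541 TPM, 18.1% of its exonic bases lying opposite another gene. Ncam1 had 27.0 ± 1.88 TPM and Calca 13.8 ± 0.815 TPM, while Chga, Snap25, Scg2, Insm1 and Sox2 had 0 counts.

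Genes of immune and endothelial cells, which could be carried along, were low or at 0 counts except for Cd14 and Cd68. Of 13 immune genes, 2 (15.4%) were expressed, Cd14 at 15.5 ± 1.34 TPM and Cd68 at 1.39 ± 0.614 TPM, and the list summed to between 16.9 and 18.6 TPM. Cd3e, Cd79a, Nkg7, Itgam and Lyz2 had 0 counts. None of 11 endothelial genes was expressed, the list summed to between 0.826 and 1.49 TPM, and Cdh5, Robo4 and Emcn had 0 counts. Of the 5 genes of the Y chromosome in the list, Kdm5d, Usp9y and Eif2s3y had 0 counts, Ddx3y had 1 count in each library and Uty had 0, 3 and 1.

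**Figure D2:**
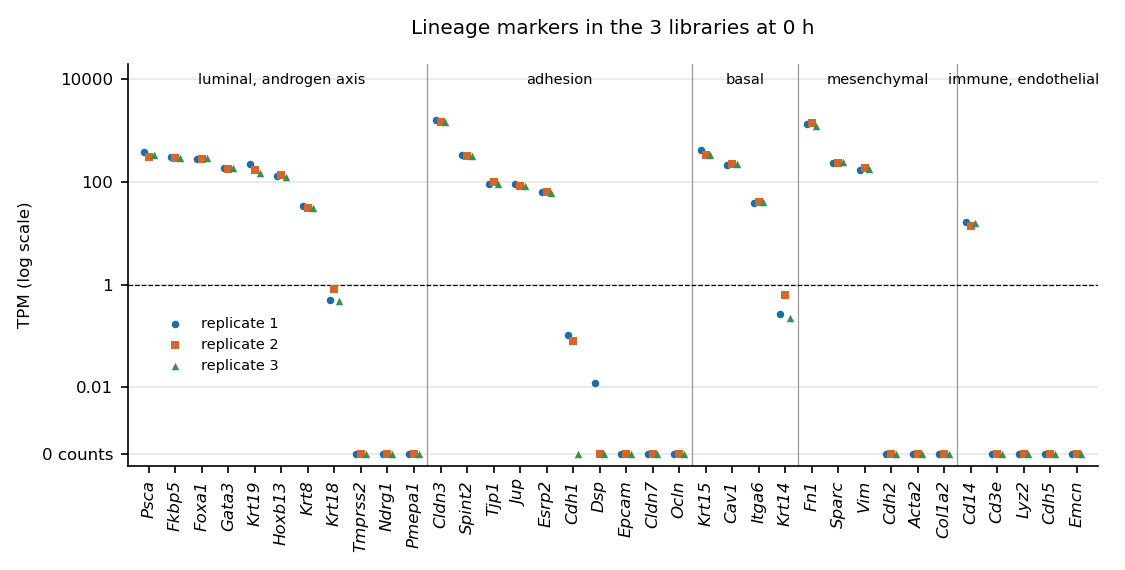
TPM (log scale) of lineage markers in each of the 3 libraries at 0 h, one point per library, grouped by list, with 0 counts drawn at the bottom and the limit of 1 TPM as a dashed line. The points of a gene lie on top of each other at high levels, and markers of the same list stand at either end of the scale, as with Cldn3 at 1502 TPM and Epcam at 0 counts.

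Receptor tyrosine kinases, the family to which the ErbB receptors belong, covered a wide range. Of 46 in the table, 21 (45.7%) were expressed, against 66.9% of all genes, 19 were low and 6 undetected. Axl and Ddr1 led the order. Axl, a receptor for GAS6, had 198, 210 and 205 TPM, and the collagen receptor Ddr1 had 191, 186 and 181 TPM. Erbb2, encoding HER2, followed with 107, 103 and 105 TPM. Met, the receptor of hepatocyte growth factor, had 94.9, 105 and 102 TPM, and the Eph receptors Ephb4 and Epha2 had 92.9 ± 2.41 and 87.6 ± 4.97 TPM. The values of Erbb2 and Met overlapped, as did those of Met and Ephb4 and those of Ephb4 and Epha2. The order of these neighbors thus does not exceed the spread. Genes further apart in the group did not overlap. The lowest value of Erbb2, 103 TPM, was above the highest of Ephb4, 95.5 TPM, and of Epha2, 93.1 TPM. That of Met, 94.9 TPM, was above the highest of Epha2.

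Erbb3, encoding HER3, had 48.3, 47.5 and 45.0 TPM. It followed Ryk, a receptor of Wnt ligands, at 74.5 ± 0.115 TPM and the insulin receptor Insr at 61.1 ± 3.79 TPM, both without overlap with the next gene, and it overlapped with Fgfr2 at 44.2 ± 2.10 TPM, which in turn overlapped with Igf1r at 41.4 ± 2.22 TPM. The places of Erbb2 and Erbb3 depend on the length used. With the longest transcript as length, Erbb2 had 80.05 TPM, below Met at 83.16 TPM and Ryk at 80.61 TPM. Erbb3 then had 34.4 TPM, below Fgfr2 at 75.5 TPM and Igf1r at 44.7 TPM. Egfr was lower than both other ErbB receptors, at 8.59, 9.50 and 9.42 TPM. Erbb2 was thus above Erbb3, and Erbb3 above Egfr, in every library. Erbb4 was not among the receptor tyrosine kinases in the table. The remaining expressed members were Lmtk2 (35.7 ± 2.64 TPM), Ror1 (29.4 ± 2.19 TPM), Mertk (14.7 ± 1.76 TPM), Ephb3 (9.71 ± 0.507 TPM), Fgfr3 (6.58 ± 0.340 TPM, 13.9% of its exonic bases lying opposite another gene), Pdgfra (5.72 ± 0.154 TPM), Styk1 (5.46 ± 0.391 TPM), Lmtk3 (4.42 ± 0.636 TPM) and Tyro3 (3.39 ± 0.406 TPM). Of the 20 pairs of neighbors in the order, 12 did not overlap and 8 did. Ret, Alk, Fgfr4, Ephb6 and Epha6 had 0 counts, and Fgfr1, chosen after its values were seen, had 6, 1 and 1.

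**Figure D3:**
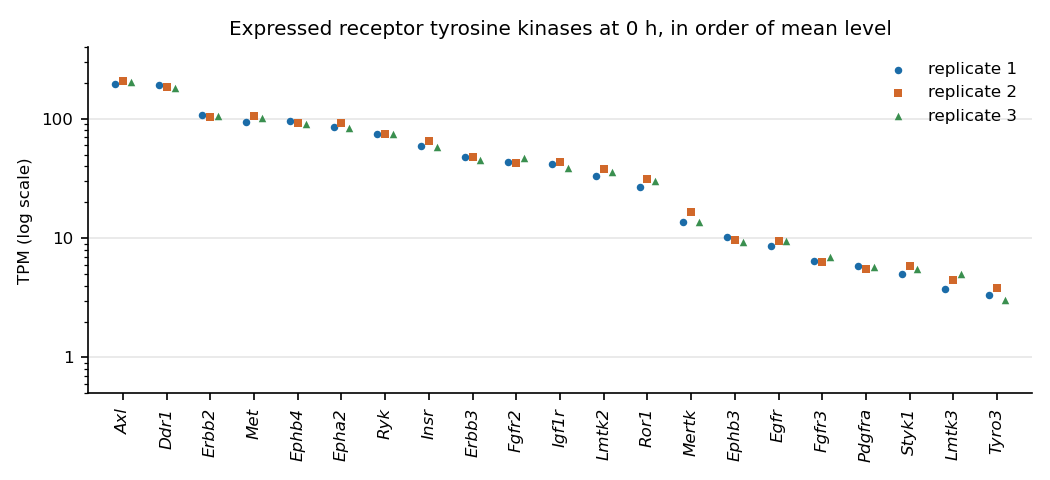
TPM (log scale) of the 21 expressed receptor tyrosine kinases in each of the 3 libraries at 0 h, in order of mean level from left to right. Axl and Ddr1 are apart from the rest, only neighbors overlap among Erbb2, Met, Ephb4 and Epha2 around 100 TPM, and Egfr lies near 9.17 TPM.

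Ligands of these receptors were led by an ephrin. Of 48 in the table, 27 (56.2%) were expressed and 6 undetected. Efna1, a ligand of Eph receptors, had 225, 222 and 191 TPM, followed by the vascular factor Vegfa at 178 ± 12.8 TPM, by Kitl, the ligand of KIT, at 104, 113 and 112 TPM, and by Vegfb, another vascular factor, at 106 ± 5.58 TPM, whose values overlapped with those of Kitl. Of the ErbB ligands, Tgfa, Hbegf and Btc were expressed at low levels, with 6.18 ± 0.152, 5.26 ± 0.141 and 1.30 ± 0.132 TPM. Egf was below 1 TPM in each library, at 0.524, 0.565 and 0.560 TPM. These 4 were chosen after their values were seen. The ligand genes Areg, Ereg and Nrg1 itself were not among the ligands in the table. Gas6, a ligand of Axl, Tyro3 and Mertk, had 0 counts, as had Gdnf, Fgf9, Fgf15, Angpt1 and Angpt4.

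Nuclear receptors are transcription factors that bind steroids, retinoids and other lipids. Of 37 in the table, 24 (64.9%) were expressed, near the 66.9% of all genes, and Nr1i2 and Esrrg were undetected. The retinoic acid receptor Rarg had 121, 115 and 114 TPM, then the bile acid receptor Nr1h4 with 95.7 ± 1.83 TPM, the oxysterol receptor Nr1h2 with 89.6 ± 0.575 TPM, Nr2f2 (COUP-TFII) with 76.3 ± 0.344 TPM and Rxrb, a partner of many nuclear receptors, with 69.1 ± 1.31 TPM. Nr2f6 had 53.9 ± 1.99 TPM, 54.4% of its exonic bases lying opposite another gene. The values of these 6 genes did not overlap with those of the next among them. The order of the middle members turned with the longest transcript as length, an alternative chosen after the values were seen, to Nr2f2 at 114 TPM, Nr1h2 at 110.2 TPM and Nr1h4 at 80.2 TPM. Between 50 and 10 TPM lay Rara, Esrra, Thra, the vitamin D receptor Vdr (40.0, 34.5 and 33.6 TPM), Nr1d2, Rxra, Ppard, Nr1d1, Nr2c1, Rora, Nr4a1 and Nr1h5, and below it Nr2c2, the estrogen receptor Esr1 (5.39 ± 0.157 TPM), Nr4a2 and Nr6a1 (2.82 ± 0.0918 TPM). The glucocorticoid receptor Nr3c1 was near 0, with 5, 15 and 5 counts, and was chosen after its values were seen.

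Hox genes, which record position along the body axis, were expressed from 3 of the 4 clusters. Of 26 in the table, 14 (53.8%) were expressed, against 66.9% of all genes. These were 6 of 10 in the a cluster, 5 of 9 in the b cluster, 0 of 3 in the c cluster and 3 of 4 in the d cluster. Hoxb13, the most posterior gene of its cluster, was the highest with 130.4 ± 3.22 TPM. Next came Hoxa7 at 35.3 ± 0.663 TPM, 20.4% of its exonic bases lying opposite another gene, Hoxb9 at 26.2 ± 3.36 TPM and Hoxd9 at 24.2 ± 2.64 TPM, of which the last pair overlapped. Hoxa5, Hoxb6, Hoxa6 and Hoxd8 lay between 15.7 ± 0.779 and 11.2 ± 0.307 TPM. Hoxa3, Hoxd4, Hoxb5, Hoxa9 and Hoxb4 lay between 2.94 ± 0.0904 and 1.47 ± 0.260 TPM. Hoxa10 had 0 counts.

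**Figure D4:**
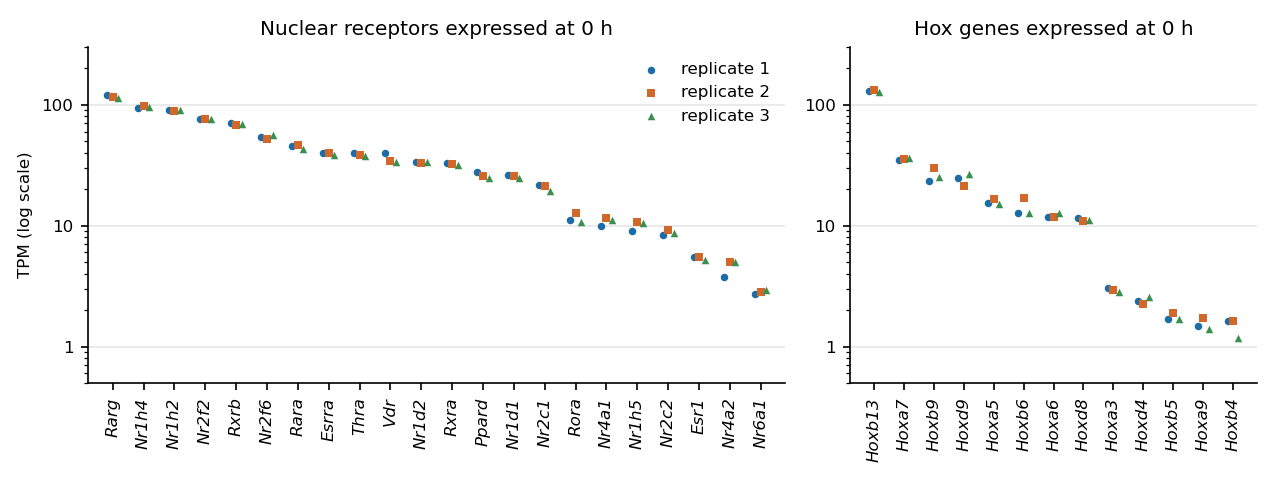
TPM (log scale) of 22 expressed nuclear receptors (left) and 13 expressed Hox genes (right) in each of the 3 libraries at 0 h, in order of mean level. Hoxb13 at 130.4 TPM stands clear of the other Hox genes drawn, and the nuclear receptors drawn fall from 117 TPM for Rarg to 2.82 TPM for Nr6a1.

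Other families of developmental transcription factors differed in how many members were expressed, from 3 of 10 Sox genes to 14 of 16 Klf genes. Over all genes, 66.9% were expressed. Sox9, a factor needed for prostate development, led the Sox genes with 236, 236 and 220 TPM, ahead of Sox4 at 103 ± 1.48 TPM, 54.6% of its exonic bases lying opposite another gene, and Sox12 at 62.0 ± 1.05 TPM, while Sox2, Sox10 and Sox13 had 0 counts. Of 31 Fox genes, 17 (54.8%) were expressed, with Foxk2 (124 ± 10.1 TPM), Foxo4 (112 ± 4.82 TPM) and Foxc1 (89.9 ± 3.45 TPM) next after Foxa1, and Foxp2, Foxh1, Foxn4, Foxd4, Foxe1 and Foxl1 had 0 counts. Of 16 Klf genes, 14 (87.5%) were expressed, led by Klf9 at 216 ± 5.20 TPM and Klf6 at 138 ± 3.78 TPM. Of 21 ETS factors, 14 (66.7%) were expressed, with Ets2, Erf, Etv4 and Gabpa at 67.4 ± 1.16, 65.4 ± 2.77, 60.6 ± 0.841 and 43.8 ± 1.15 TPM. Gata3 and Gata6 (6.95 ± 0.135 TPM) were the expressed Gata factors.

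Integrins, the receptors of the extracellular matrix, were expressed in part, and some of them were high. Of 24 in the table, 9 (37.5%) were expressed, against 66.9% of all genes. Itga3, an α chain for laminin, had 1314, 1328 and 1290 TPM, and the common β chain Itgb1 had 691, 735 and 738 TPM. Itgb5 had 437, 410 and 436 TPM, and Itga5, an α chain for fibronectin, had 67.1, 75.8 and 67.6 TPM. The first 4 pairs of neighbors in the order did not overlap. Itgam, Itga8, Itga1 and Itgad had 0 counts.

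Receptors of other secreted signals were also surveyed. For the TGF-β and BMP family 10 of 13 (76.9%) receptors were expressed, with the co-receptor Tgfbr3 at 72.9 ± 1.39 TPM and Bmpr1a at 66.2 ± 4.33 TPM, and for Wnt ligands 11 of 16 (68.8%), with Lrp5 at 102 ± 3.31 TPM and Fzd6 at 70.5 ± 2.95 TPM. Notch4 was the highest Notch receptor, with 147, 134 and 134 TPM, above Notch2 at 59.1 ± 3.44 TPM and the ligand Jag1 at 8.42 ± 0.273 TPM. Of 38 cytokine receptors, 17 (44.7%) were expressed, led by Il17rc at 61.2 ± 2.82 TPM, the prolactin receptor Prlr at 51.7 ± 1.5 TPM, Ifngr1 at 46.7 ± 0.904 TPM and Ifnar1 at 45.2 ± 0.400 TPM. Osmr and Lifr, the receptors of oncostatin M and leukemia inhibitory factor, Il9r, Csf2ra and Csf2rb had 0 counts.

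Of 22 TNF receptors, 11 (50%) were expressed, with Tnfrsf21 (death receptor 6) at 487, 462 and 473 TPM. Tnfrsf1a, Ltbr and Tnfrsf12a followed at 159.7 ± 7.25, 155 ± 8.66 and 137 ± 2.90 TPM, and Edar and Cd40 had 0 counts. Of 34 G-protein-coupled receptors for lipids, proteases, chemokines and related ligands, 8 (23.5%) were expressed, led by Ackr3, Smo and the protease receptors F2rl1 (83.6 ± 1.95 TPM) and F2r (58.4 ± 2.71 TPM). Ackr3, a scavenging receptor of chemokines, had 123, 108 and 98.5 TPM. Among semaphorin receptors, the plexin Plxnb2 had 205, 221 and 211 TPM, whereas the neuropilins Nrp1 and Nrp2 had 0 counts.

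Growth control genes were expressed almost without exception. All 29 tumor suppressor genes and all 29 proliferation genes were expressed, as were 21 of 23 (91.3%) oncogenes and 25 of 29 (86.2%) immediate early genes, against 66.9% of all genes. Cdkn2a, the locus of p16 and ARF, was the highest tumor suppressor with 556, 572 and 583 TPM, ahead of Spop, Cdkn1b and Smad4 at 228 ± 6.23, 202 ± 7.40 and 194 ± 5.82 TPM. Trp53, chosen after its values were seen, had 64.3 ± 1.03 TPM. The kinase gene Akt1 had 264 ± 6.13 TPM and the β-catenin gene Ctnnb1 263 ± 7.46 TPM, 14.6% of its exonic bases lying opposite another gene. The apoptosis inhibitors Mcl1 and Bcl2l1 had 219 ± 8 and 164 ± 2.88 TPM. Myc had 91.6, 86.2 and 89.7 TPM. It was chosen after its values were seen, and reads of the human transgene cannot be told apart from those of the mouse gene in this table. Ccnd2 had 0 counts. Jund was the highest immediate early gene with 884 ± 13.1 TPM, 43.5% of its windows occurring in another gene, ahead of Junb at 295 ± 15.4 TPM, Ier3 at 199 ± 19.2 TPM and Jun at 175 ± 4.80 TPM. Fos and Egr1, chosen after their values were seen, had 30.7 ± 2.44 and 5.71 ± 0.438 TPM.

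Small calcium- and metal-binding proteins were among the abundant transcripts. Of 13 S100 genes, 9 (69.2%) were expressed, with S100a11, S100a10 and S100a1 at 1068 ± 51.4, 841 ± 17.5 and 361 ± 11.8 TPM after S100a6, and S100a8 and S100b had 0 counts. The metallothionein Mt1 had 1565, 1392 and 1346 TPM and Mt2 208, 174 and 153 TPM, highest in the first library in both. Of the exonic bases of Mt2, 73.5% lie under a gene on the other strand.

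The undetected genes were examined as a class. Of the 1271, 44 were olfactory or vomeronasal receptors, 138 had predicted or clone names and 1089 were other named genes. None of the 71 olfactory and 36 vomeronasal receptors in the table was expressed. The median exon length of the undetected genes was 3098 bases, against 4517 bases for the expressed genes, and at that length a count of 0 allows up to 0.0881 to 0.115 TPM in a library. A further 2301 low genes had between 1 and 10 counts over the 3 libraries, so that a gene at 0 counts and a gene near 0 are not separable at this depth. Chromosomes differed little. The share of expressed genes ran from 60.2% on the X chromosome to 72.0% on chromosome 8, apart from the mitochondrial genome, where all 13 genes were expressed, and the Y chromosome, where 0 of 6 were. Stretches of neighboring genes with none expressed were also sought, passing over genes that are not in the table. The longest held 25, 23 and 19 genes, on chromosomes 14, 18 and 2. Next came one on chromosome 11 (GRCm38, 99514114 to 100050551). There 18 genes from Krt39 to Krt31, keratins and keratin-associated proteins of hair, were all low or undetected. The expressed Krt15 and Krt19 lie further along the same cluster.

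To ask how far the 3 libraries agree, each gene with at least 30 counts over the libraries was tested for counts that vary by more than counting error, with a chi-square test against library sizes scaled by the trimmed mean of M values (TMM). A gene was called variable when the p adjusted by the Benjamini-Hochberg method did not exceed 0.05 and the highest counts per 1000000 (CPM) were at least 1.5 times the lowest. Of 11269 genes tested, 250 (2.22%) were called. The adjusted p alone was passed by 3609 genes, since deep counts resolve small differences. Leaving out replicate 1, 2 or 3 gave 94, 112 and 124 called genes. At high counts the test passes small differences between replicates, so the fold limit decides the call there, and at low counts counting error alone widens the ratio. Where the calls fall along the scale of abundance is therefore in part set by the criterion. Of the genes called, 6 were among the 8514 tested with a mean of at least 10 CPM and 244 among the 2755 below that level. Above 10 CPM the median coefficient of variation was 4.004% and its 95th percentile 10.2%, and 93.5% of genes had a highest value less than 1.2 times the lowest. The biological coefficient of variation estimated by edgeR over 11023 genes was 4.48%. Over the 250 calls, replicates 1, 2 and 3 were the highest in 90, 97 and 63 and the lowest in 84, 67 and 99. In each of the 6 calls above 10 CPM, replicate 1 was either the highest or the lowest.

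The 6 called genes above 10 CPM did not all depart in the same direction. Rps27rt, a copy of a ribosomal protein gene of which 89.5% of windows occur in another gene, had 14.6, 12.7 and 6.98 CPM. Tns4, a tensin of focal adhesions, had 27.7, 16.7 and 19.2 CPM, Krt19 had 125, 91.5 and 80.4 CPM, and Gpx3, a secreted glutathione peroxidase, had 703, 462 and 461 CPM. These 3, like Rps27rt, were highest in the first library. Spata7 had 7.98, 13.1 and 13.6 CPM and Fn3krp, a repair enzyme of glycated proteins, 12.5, 15.6 and 19.0 CPM, both lowest in the first library. Of the 38 lists, 13 held at least 1 called gene. Called were 4 of 34 receptor tyrosine kinase ligands tested, 2 of 24 receptor tyrosine kinases, 2 of 16 keratins and 2 of 14 integrins, and no other list held more than 1. None of the 28 nuclear receptors, 18 Hox genes and 29 proliferation genes tested was called. Over all genes tested, 2.22% were called.

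**Figure D5:**
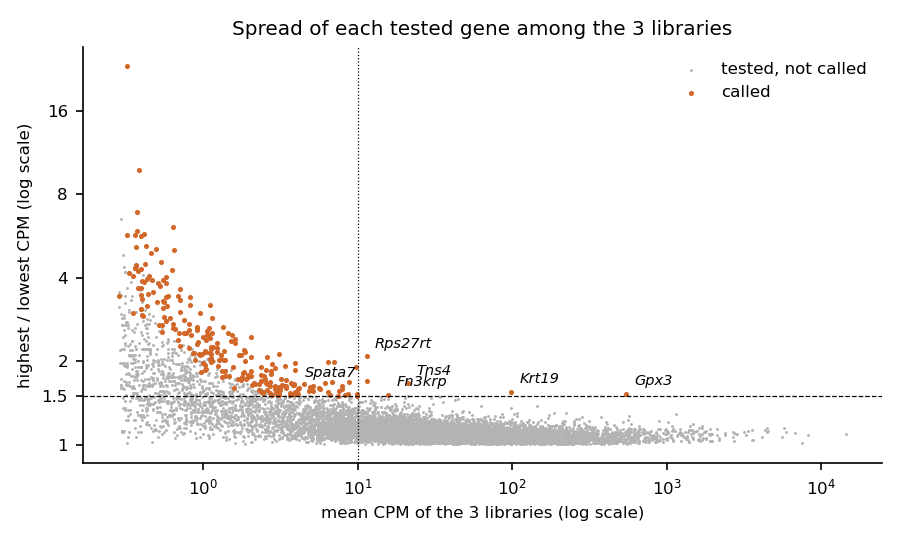
Ratio of the highest to the lowest CPM among the 3 libraries (log scale) against the mean CPM (log scale) for each gene tested, with the 250 called genes in orange, the 1.5-fold limit as a dashed line and 10 CPM as a dotted line. One called gene with a library at 0 has no ratio and is not drawn. The ratios narrow with level, and right of the dotted line only the 6 labelled genes are called.

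Small differences that did not reach 1.5-fold were nonetheless shared within some groups. Summed over the list, proliferation genes had 1662, 1873 and 1889 CPM, and 26 of the 29 were lowest in the first library, against 36.3% of all expressed genes. The adjusted p alone was passed by 21 of the 29, against 32.0% of all genes tested. These shares are not matched for level. All 29 were expressed, whereas the genes tested include 2755 below 10 CPM, where small differences are resolved less well. Mki67 had 40.4, 50.8 and 48.4 TPM, and Rrm2, the ribonucleotide reductase subunit that limits DNA synthesis, had 215, 247 and 247 TPM. Cytosolic ribosomal protein genes went the other way, with 90342, 82322 and 83368 CPM in sum, and 75 of 79 were highest in the first library, against 36.1% of all expressed genes. In bulk RNA, fewer cells in cycle and less of these transcripts per cell cannot be told apart. The first library is also the one with the fewest counts, and the part of depth in these differences was not tested.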

How the data were processed

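RNA was measured in MyC-CaP cells by paired-end mRNA sequencing. Per the labels and the study's methods, the authors trimmed reads with Cutadapt, aligned them with STAR to GRCm38.p6 and counted them with featureCounts on a GENCODE annotation. The authors deposited the raw counts of protein-coding genes as 1 table, without scaling. Strand use and the treatment of reads that match several genes were not stated, so overlapping genes and close copies are uncertain. Of the 9 libraries, the 3 labelled 0 h were used, with 28467089 to 37873433 counts.

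TPM used union exon lengths from GENCODE vM21, an annotation of the same build but an older release than the authors used. Lengths were found for 15541 of 15552 genes, and the other 11 could not be classed as expressed. CPM used TMM in edgeR 4.0.16 under R 4.3.3. Exonic overlap between genes and the share of 100-base windows found in transcripts of other genes were computed from the same annotation. For 9 symbols shared by several identifiers, the identifier with the most counts was taken in lists. The chi-square test for spread had 2 degrees of freedom and was tested on simulated data. The simulated counts held counting error and added changes but no other spread between replicates. They therefore do not show how the test behaves on these libraries. Neighbors in an order of levels were said to overlap where the ranges of their 3 values did. No time points were compared.

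The gene lists and the members named were chosen with earlier results of these data known. Named were the 30 genes with the highest mean TPM, the 4 highest expressed members of a list, every expressed receptor tyrosine kinase, nuclear receptor and Hox gene, list members at 0 counts in all 3 libraries, and up to 10 called variable genes with a mean of at least 10 CPM, leaving out predicted and clone names. Alternatives were other TPM limits, CPM, the longest transcript as length, other scalings and filters, and leaving out each library. Some genes that the rule would name are not reported here.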

Additional observations from a re-analysis of the deposited data

How the results depend on the processing

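The number of expressed genes stayed within 1.5 times of 10404 under every alternative run, with 10764 at a limit of 0.5 TPM, 9919 at 2 TPM, 10358 at 1 CPM, 10335 with the longest transcript as length and 10438 to 10458 without one library. The number of undetected genes was 1271 and rose to 2608 when up to 3 counts over the libraries were allowed, and to between 1587 and 1714 without one library, since fewer counts are then seen. The share of TPM in the 100 highest genes was 34.3% and became 35.6% with the longest transcript as length, 32.6% without the mitochondrially encoded genes and 33.9% to 34.5% without one library. The number of variable genes was 250 with DESeq2 size factors too, 259 with total counts, 374 with no filter on low counts and 3609 with no fold threshold. Without one library it was 94 to 124, where only a pair of libraries is compared. Over all lists, 476 members were expressed, 504 at 0.5 TPM and 448 at 2 TPM, and 36 and 37 of 38 lists stayed within 1.5 times of their count. With the longest transcript as length, levels of the 21 receptor tyrosine kinases became 0.733 to 1.71 times as high (the highest ratio for Fgfr2, which then passed Erbb3), and 5 of the 6 highest remained among the 6 highest. The planned comparison of promoter CG counts between classes was not run, because windows were given for 77.9% of genes. No paired analysis was possible because the results come from 1 group, and no groups were compared. At this depth levels below about 0.1 CPM in a library cannot be told from 0.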
